A study of Homo sapiens with 2 samples.

Results

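The high mobility group (HMG) chromatin proteins were followed through all probes that the arrays carry for HMGB1, HMGB2, HMGB3, HMGA1, HMGA2, HMGN1, HMGN2, HMGN3 and HMGN4. Members were chosen by gene name among the probes that are no controls, which gave 23 probes for 9 genes of 41000 probes and 30982 gene names in all. Expression was profiled in Y79 cells, a long-established retinoblastoma line of human origin kept in suspension culture, to look for genes that respond to loss of the epithelial cell adhesion molecule Ep-CAM. RNA of untreated Y79 cells was hybridized to 1 one-color oligonucleotide array, and RNA of Y79 cells taken 48 h after EpCAM siRNA to another on the same slide. By the study's text, both cultures had been exposed to 5′-azacytidine, a DNA demethylating agent, which the sample labels do not give. Labels and text both describe a control without siRNA, though a figure caption of the study also names a nonsilencing siRNA as reference. With 1 array per group, no difference between the conditions has a replicate check, and the precision of all ratios is limited by the number of arrays.

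HMG proteins are abundant non-histone proteins of chromatin and fall into families by how they hold DNA or nucleosomes. HMGB proteins bend DNA with their HMG boxes, HMGA proteins bind the minor groove of AT-rich DNA with AT hooks, and HMGN proteins bind the nucleosome core and counteract its compaction by linker histone. HMGA proteins are high in embryonic tissue and in many tumors, and HMGA overexpression has been described in retinoblastoma.

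Of the 45015 spots on an array, 43376 were probes for transcripts. Processed signal means background-subtracted brightness in arbitrary units. Every signal was divided by the median of its array (untreated 48.9, siRNA 50.1), and log2 ratios are siRNA over untreated. Among these transcript spots, 70.4% were well above background in the untreated and 68.0% in the siRNA array. The 94 probes printed 10 times and measured at every spot had a median SD of 0.14 in log2 ratio over their spots, which is technical spread within this pair of arrays and nothing more. Ep-CAM itself, listed as TACSTD1, gave 15.6 untreated and 12.0 after siRNA, was well above background on neither array, and so offered no check of the knockdown. GAPDH, a glycolytic enzyme used as a reference, read 250 untreated and 251 after siRNA, a log2 ratio of -0.03. ACTB, which encodes cytoplasmic actin, ranged from -0.32 to 0.05 over 3 measured probes.

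A pair of properties of the arrays bear on some of the members. Bright probes were lower on the siRNA array as a body: the median log2 ratio was -0.02 for the 16335 measured probes at 1 to 10 times the array median and -0.30 for the 675 probes over 100 times. The ratios were also more scattered in 1 corner of the array (rows 355 to 532, columns 43 to 85), with an SD of 0.51 against 0.29 elsewhere. That corner held 16.8% of the spots for transcripts and 8 of the 23 HMG spots.

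Of the 23 HMG probes, 21 were well above background on at least 1 array, 18 were measured on both, and 2 gave a bound because they were dim on 1 array. The other 3 gave no ratio, since 2 were dim and 1 was saturated on both arrays. A bound sets the brighter array against the higher of the dim signal and the lowest signal well above background on the dim array. Where the dim signal is the higher, the bound equals the plain ratio and sets no minimum. At a log2 ratio of -1 or less, 2 of the 21 probes were lower after siRNA, 1 of HMGB1 and 1 of HMGA2, where the same limit was passed by 0.925% of all probes that either array showed well above background. At 1 or more, 0 of the 21 were higher, against 1.26% of all probes. In bulk RNA, fewer cells that express a gene and less RNA per cell cannot be told apart. Which probes passed depended on the processing: normexp gave 4.07% of all calls as higher, where the main setting gave 57.8%. The HMGB1 probe missed the limit with normexp (-0.55) and the authors' value table (-0.55). It also missed it narrowly with the 75th percentile, without scaling, with the median over spots well above background and after subtraction of the local median or of a running median over probes of like level. The HMGA2 probe, which lay in the scattered corner, missed it with normexp (-0.25) and the value table (-0.49).

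Without a limit on size, 14 of the 18 measured HMG probes (77.8%) had a log2 ratio under 0, as did 55.4% of all measured probes. Their median was -0.21, with a range from -1.01 to 0.23, beside a median of -0.03 over all 26976 measured probes. After quantile normalization of the arrays, which takes out a trend with signal level, the HMG median was -0.08. With normexp it was -0.51, or -0.31 relative to the median of all measured probes there. Family medians over the measured probes were -0.27 for HMGB, -0.35 for HMGA, whose only measured probes are a pair for HMGA1, and -0.15 for HMGN.

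**Figure D1:**
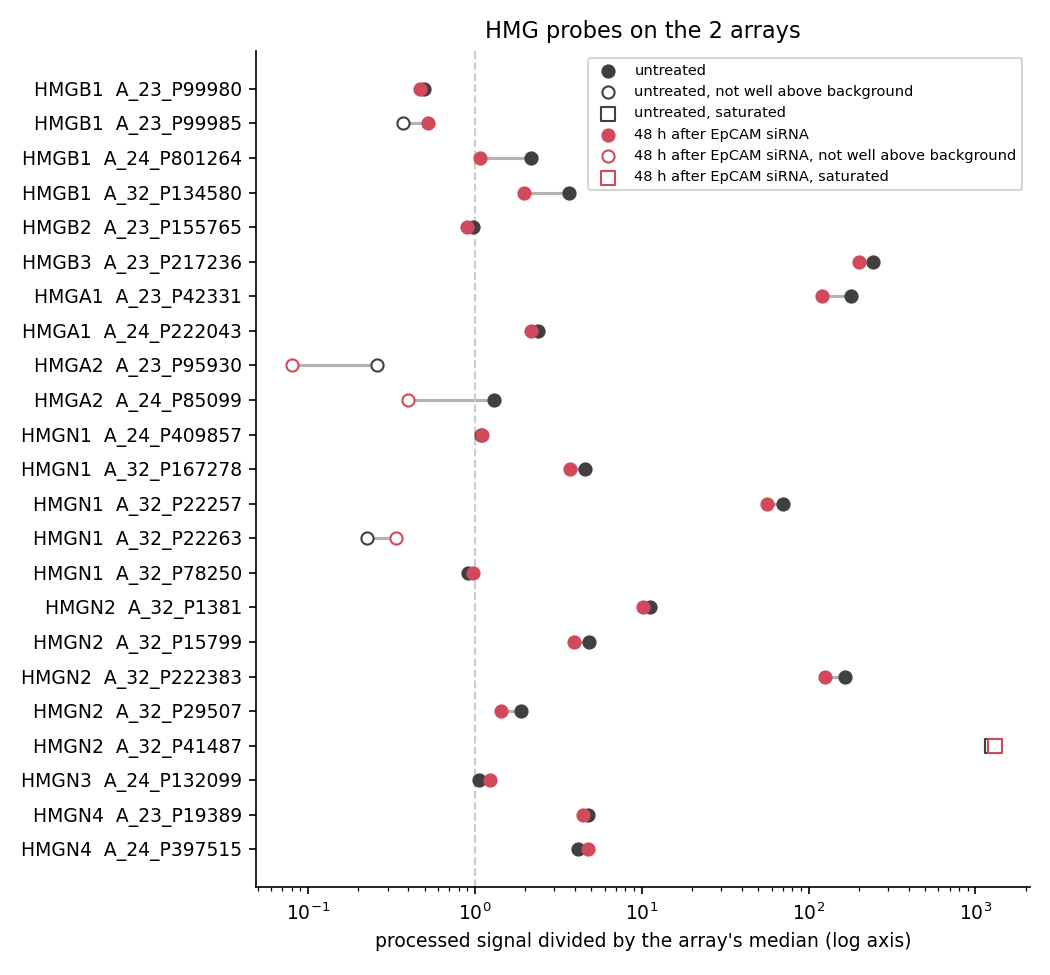
Processed signal of the 23 HMG probes, divided by the median of its array, on a log axis; each line joins the untreated (dark) and the siRNA (red) array. Open circles are not well above background and open squares are saturated, and only the HMGB1 probes A_24_P801264 and A_32_P134580 and the HMGA2 probes show long lines.

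**Figure D2:**
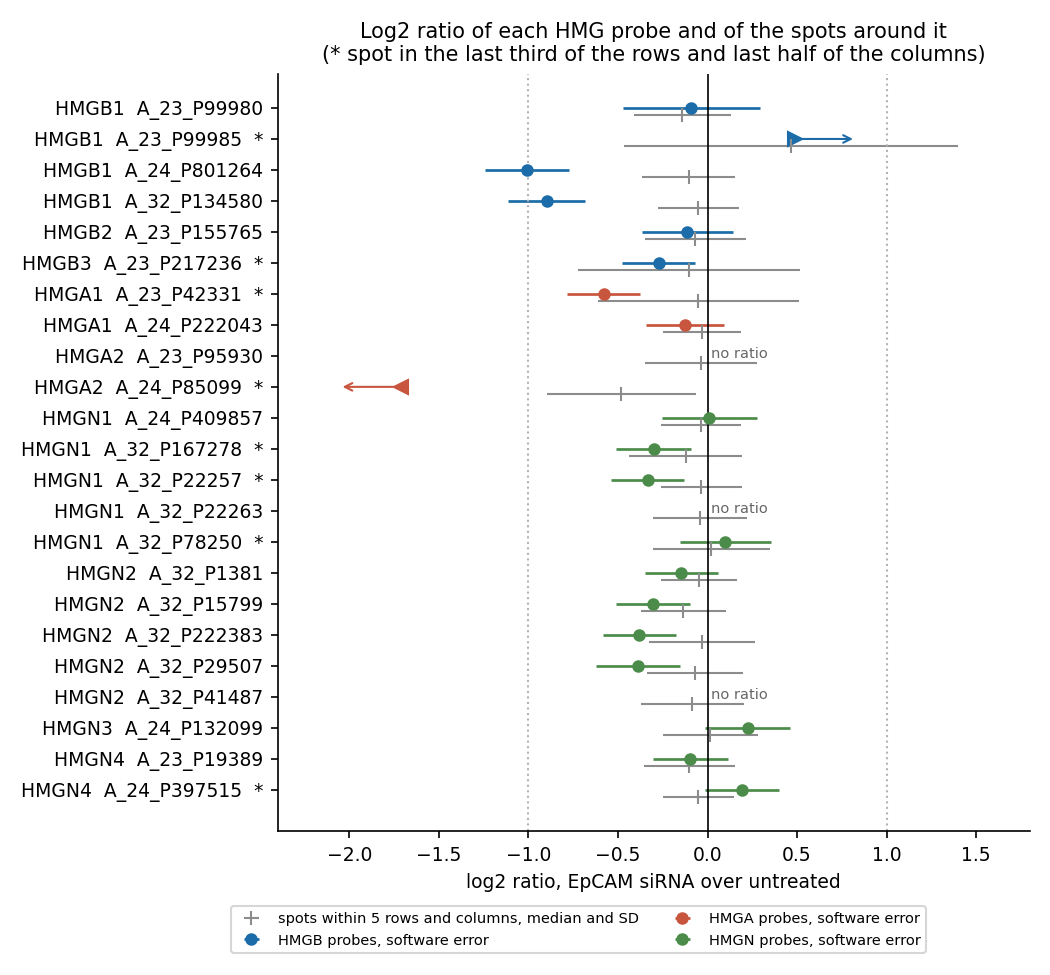
Log2 ratio of each HMG probe with the error that the scanner software gives its signals (colored bars), arrows for bounds, and the median and SD of the measured spots within 5 rows and 5 columns (gray). Dotted lines mark -1 and 1, and asterisks mark the 8 spots in the scattered corner.

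HMGB1 is a DNA-bending protein with a pair of HMG boxes and an acidic tail that also acts as an alarm signal once outside the cell. The arrays carry 4 probes for it on the minus strand of chromosome 13 (hg17, the build of the array design). From the 5′ side they lie at chr13:29934684-29934743 (A_32_P134580), chr13:29933601-29933659 (A_24_P801264), chr13:29932361-29932420 (A_23_P99985) and chr13:29932028-29932087 (A_23_P99980). The interval listed for A_24_P801264 is 1 base shorter than the probe. By the known structure of the gene, the upstream pair reads coding sequence of the second HMG box and the stretch after it, and the downstream pair reads the long 3′ untranslated region. The files themselves do not name exons. The coding probes are printed whole because the result for HMGB1 rests on them, and the downstream probes by their first 30 bases; capitals mark the longest run shared with another probe of the array, which is described with its values further on.
A_32_P134580: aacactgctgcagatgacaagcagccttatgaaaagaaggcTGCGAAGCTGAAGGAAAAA
A_24_P801264: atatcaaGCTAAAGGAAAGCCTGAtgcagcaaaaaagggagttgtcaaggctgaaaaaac
A_23_P99985, first bases: tgggccagcttttcaaacaaagatgccaca
A_23_P99980, first bases: ggattctttccatttgcatttgtttatgta

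The coding probes were both lower after siRNA. A_24_P801264 had a processed signal of 106 untreated and 53.9 after siRNA, a log2 ratio of -1.01. A_32_P134580 had 179 and 98.7, a log2 ratio of -0.90. These differences exceeded the error the software gives, 0.24 and 0.21 in log2, and the spots around them had medians of -0.11 and -0.05. That error covers technical noise only and holds no spread between cultures. The probes in the untranslated region did not share the difference, but both have low signal. The raw brightness of A_23_P99980 was 99 on each array, where negative control spots had medians of 71 and 72. A_23_P99980 read 24.3 and 23.4, a log2 ratio of -0.09 with a software error of 0.38, which turned positive with normexp background correction (0.17, or 0.38 relative to the median of -0.20 over all probes in that setting) and after subtraction of the local median (0.05). A_23_P99985 read 18.3, not well above background, on the untreated and 26.2 on the siRNA array, which is 1.40-fold higher. That bound is the plain ratio of the signals, with a software error of 0.50 in log2, and sets no minimum. That spot sits at row 456 and column 83 in the scattered corner, where the surrounding measured spots had a median of 0.47 and 17 of 56 were at 1 or more, so its bound is within what its neighbors show.

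Both coding probes lay below A_23_P99980 under every one of the 8 alternatives tried for single probes, all of which reprocess the same spots. The 75th percentile, no scaling and the median over spots well above background shift all probes alike. The gap between probes could not change under those. A_24_P801264 ranged from -1.01 to -0.55 and A_32_P134580 from -0.90 to -0.57, while A_23_P99980 ranged from -0.12 to 0.17. The smallest gaps came from the authors' value table, which holds brightness with its background left in. Probe position, genomic distance from the 3′ end, signal level and the list of transcripts matched differ together between the upstream and downstream pairs. The part each has in the result was not tested.

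**Figure D3:**
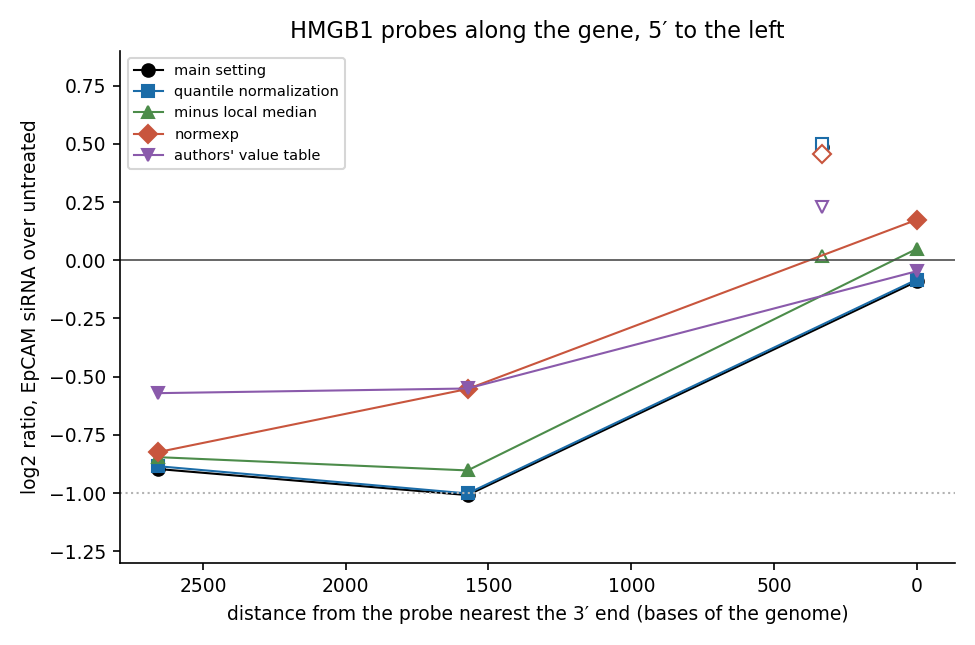
Log2 ratio (siRNA over untreated) of the HMGB1 probes against their genomic distance in bases from the probe nearest the 3′ end, under 5 ways of processing. Lines join the 3 measured probes, and open symbols show the probe 333 bases upstream, which is a bound; the probes 1573 and 2656 bases upstream lie below the probe nearest the 3′ end in each.

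Over the 3 measured HMGB1 probes, the highest minus the lowest log2 ratio was 0.92. Among the 726 genes with at least 3 measured probes the median of this spread was 0.42, and 12.7% had a spread as large as that of HMGB1 or larger. The probes of HMGB1 thus differed more than those of most genes, though 92 genes spread at least as widely. The spread was 0.52 with the value table and 1.50 over 4 probes without the filter on dim probes, and 16.8% and 14.6% of genes with as many probes spread as much or more there. Without the corner the spread was the same and that share was 7.69% of 468 genes.

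**Figure D4:**
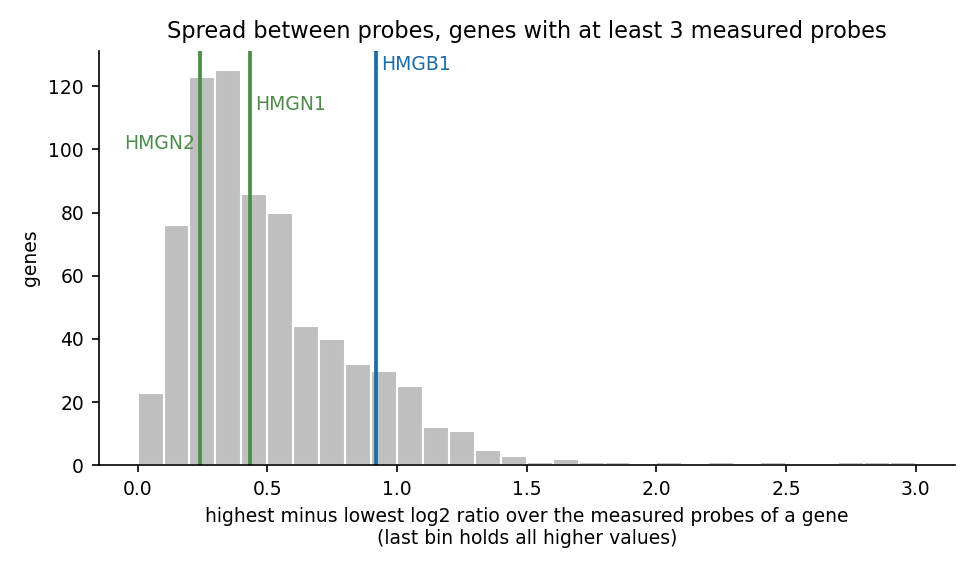
Number of genes (gray bars) by the highest minus the lowest log2 ratio over their measured probes, for the 726 genes with at least 3. Lines mark HMGB1 at 0.92, HMGN1 at 0.43 and HMGN2 at 0.24.

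HMGB1 has many processed copies in the genome, and the array files list the transcript of one, HMG1L1 (HMG1-like 1), among the matches of both coding probes but of neither downstream probe, so the signal of the coding probes cannot be given to HMGB1 alone. Probes related to these copies were looked up after the values had been seen. The probe for HMG1L1 itself, A_24_P169148, had signals of 46175 and 30658, a log2 ratio of -0.63. Both signals lie over 100 times the array median, where all probes had a median of -0.30. A_24_P101601, which shares the 17 capital bases of A_24_P801264 and has no gene name, read 37.5 and 24.2, a log2 ratio of -0.67. A_24_P349539 shares 18 bases in a row with A_32_P134580 and read 37.0 and 22.6, a log2 ratio of -0.75. A_24_P101601 and A_24_P349539 have low signal, with software errors of 0.32 and 0.35. Their raw brightness was 113 and 103, and 110 and 97, where negative control spots had medians of 71 and 72. These probes and that for HMG1L1 all lay outside the scattered corner, and none reached the limit of -1. A probe for the opposite strand of the same locus, A_32_P71768 (BM504117), pairs with the 19 capital bases of A_32_P134580. It read 96.6 and 82.9, a log2 ratio of -0.26, at row 488 and column 84 in the scattered corner.

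HMGB2 and HMGB3 are close relatives of HMGB1 with the same pair of HMG boxes. HMGB2, which is linked to dividing cells, has the probe A_23_P155765 (chr4:174627743-174627802), which read 47.6 and 45.1 for a log2 ratio of -0.11, under the technical SD. HMGB3, the X-linked member known from blood progenitors, has A_23_P217236 (chrX:149827000-149827059), which read 11842 and 10041 for a log2 ratio of -0.27 that turned to 0.08 with quantile normalization and was -0.87 with normexp (-0.67 relative to the median there). Its spot lies in the scattered corner, where those around it had an SD of 0.62. Its signal lies over 100 times the array median, where all probes had a median of -0.30. The probe for HMG4L, a copy related to HMGB3, read 106 and 79.3, a log2 ratio of -0.45.

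HMGA1 and HMGA2 are the AT-hook members, and each has a pair of probes. For HMGA1, A_23_P42331 (chr6:34321573-34321632) had signals of 8751 and 6001, a log2 ratio of -0.58, and A_24_P222043 (chr6:34316515-34316574), which lies upstream, had 116 and 109, a log2 ratio of -0.12. The first is bright and at row 528 and column 73 in the scattered corner, where the surrounding spots had an SD of 0.56. Its ratio was -0.24 with quantile normalization and -0.92 with normexp (-0.72 relative to the median there), so its direction held and its size did not. The HMGA1 probes spread over 0.45, and 27.3% of the 3962 genes with at least 2 measured probes spread as much or more. That spread depended on the processing: it was 0.12 with quantile normalization, 0.13 after the running median, 0.14 with the value table and 0.69 with normexp.

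HMGA2, the oncofetal member, was at the edge of detection. Its probe A_24_P85099 is printed because the bound rests on it. It joins parts of the coding sequence that lie far apart, at chr12:64518599-64643300, an interval of 124702 bases for a probe of 60, and so reads spliced RNA.
A_24_P85099: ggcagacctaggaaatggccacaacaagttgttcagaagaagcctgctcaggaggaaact

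This probe read 64.0, well above background, untreated and 20.01, not well above background, after siRNA. That bounds HMGA2 at 3.28-fold lower or more, a log2 ratio of -1.71. The spot sits at row 514 and column 51 in the scattered corner, and the 65 measured spots around it had a median of -0.48, the lowest of any HMG spot. After subtraction of that local median the value was -1.23. Its raw brightness was 124 untreated and 91 after siRNA, over a local background of 35.5 and 36.5. With normexp correction the value was -0.25, and -0.05 relative to the median of all probes in that setting. The other probe, A_23_P95930 (chr12:64646056-64646115), read 12.7 and 4.00, dim on both arrays, and gives no second reading of HMGA2.

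HMGN1 and HMGN2, the nucleosome-binding proteins formerly called HMG14 and HMG17, have 5 probes each. For HMGN1, A_32_P22257 (chr21:39636857-39636916) had signals of 3458 and 2813, a log2 ratio of -0.33, but -0.04 with quantile normalization, -0.05 after the running median and -1.01 with normexp (-0.81 relative to the median there). A_32_P167278 was at -0.30, but -0.57 with normexp (-0.36 relative to the median there) and -0.18 after subtraction of the local median. A_32_P78250 was at 0.10, but 0.04 with normexp (0.24 relative to the median there) and 0.015 with the value table. All 3 of these spots lie in the scattered corner, though the spots around them had SDs of 0.23, 0.32 and 0.33 in that order. The measured probe outside it, A_24_P409857, was at 0.01, with -0.09 under normexp and -0.02 in the value table, in settings where all measured probes had medians of -0.20 and -0.04. HMGN1 thus lay on both sides of 0. Its spread was 0.43, and 61.8% of the 131 genes with at least 4 measured probes spread as much or more, but it was 1.05 with normexp and 0.91 without the filter on dim probes. The fifth probe, A_32_P22263 (chr21:39636887-39636946), overlaps A_32_P22257 by 30 bases, printed here because probes that share this run gave a measured value and none.
Shared by A_32_P22257 and A_32_P22263: TCTGATTAATAACCATATACCATGTCTCAT

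A_32_P22263 read 11.0 on the untreated and 16.8 on the siRNA array, not well above background on either, whereas A_32_P22257 was measured on both. Probes elsewhere on the array resemble HMGN1 as well. A_32_P117697 (ENST00000378969) shares 39 bases in a row with A_32_P167278 and had a log2 ratio of -0.06, and A_24_P366495 (ENST00000311040) shares 20 with A_32_P78250 and had -0.43. The signals of A_32_P167278 and A_32_P78250 may therefore not come from HMGN1 alone.

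For HMGN2, the 4 measured probes all lay below 0, from -0.39 to -0.15, and their sign but not their size held under each of the 8 alternatives. A_32_P222383 (chr1:26486334-26486393) had signals of 8042 and 6328, a log2 ratio of -0.38 that ranged from -1.08 with normexp (-0.88 relative to the median there) to -0.05 after the running median. A_32_P29507 (chr1:26486277-26486336) had 92.3 and 72.3, a log2 ratio of -0.39. A_32_P15799 had 238 and 197 (-0.30), and A_32_P1381 had 548 and 507 (-0.15). Their spread was 0.24, and 91.6% of the genes with as many measured probes spread as much or more, but it was 0.81 with normexp and 0.44 without the filter on dim probes. None lay in the scattered corner. The fifth probe, A_32_P41487 (chr1:26486496-26486555), was saturated on both arrays at 61339 and 65286 and gives no ratio. It overlaps A_32_P15799 by 15 bases.
Shared by A_32_P41487 and A_32_P15799: CCTGAAATACCATGA

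HMGN2 is rich in copies too. A_23_P423419, listed under C15orf21, matches A_32_P41487 at 42 of 45 overlapping bases and was likewise saturated on both arrays, at 66613 and 69191. The probes A_32_P29507, A_32_P222383 and A_32_P15799 also list a transcript of TRMT5, a tRNA methyltransferase, so those ratios cannot be given to HMGN2 alone.

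HMGN3 and HMGN4 are the remaining nucleosome-binding members, HMGN4 being an intronless relative of HMGN2. HMGN3, by A_24_P132099 (chr6:79968811-79970060), read 51.6 untreated and 61.9 after siRNA, a log2 ratio of 0.23, the highest of the measured HMG probes in the main setting and within its software error of 0.24, but 0.06 with normexp (0.26 relative to the median there) and 0.12 with the value table. HMGN4 had signals of 233 and 223 at A_23_P19389 (chr6:26654618-26654677) and of 203 and 238 at A_24_P397515 (chr6:26654202-26654261), log2 ratios of -0.10 and 0.19, of which the first turned to 0.01 after subtraction of the local median and the second to -0.25 with normexp (-0.04 relative to the median there). With normexp the first was -0.47 (-0.27 relative to the median). The second lies in the scattered corner, though the spots around it had an SD of 0.20. The HMGN4 probes thus differed in sign in the main setting.

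**Figure D5:**
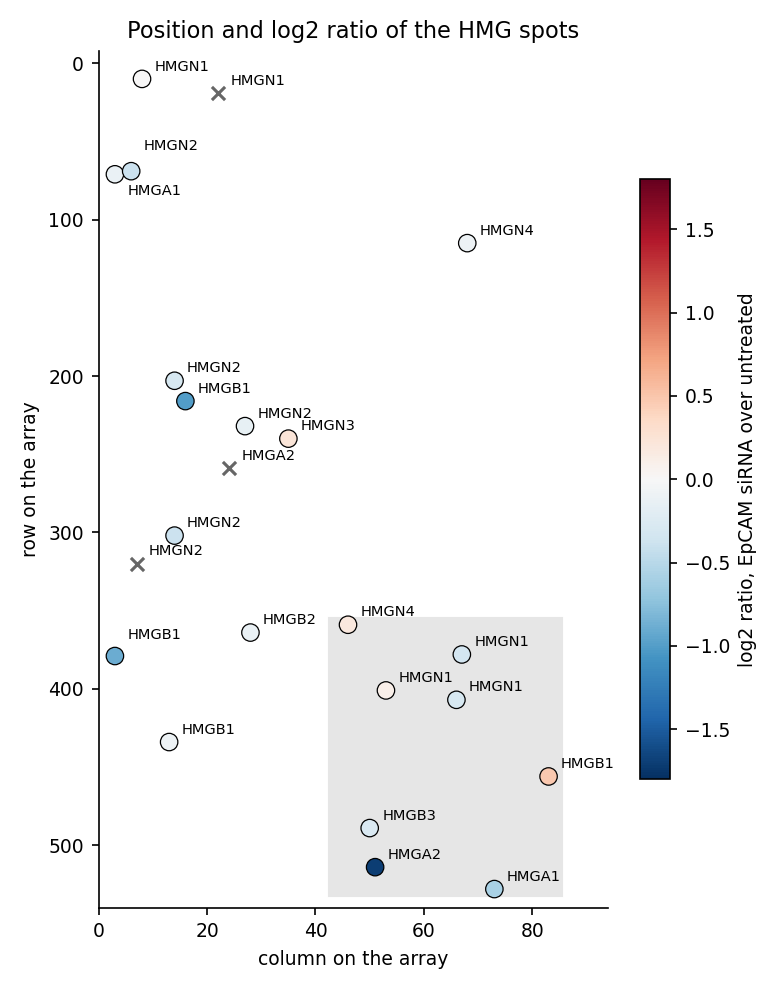
Position of the 23 HMG spots on the array of 532 rows and 85 columns, colored by log2 ratio (siRNA over untreated; crosses, no ratio). The gray area is the scattered corner, which holds the HMGA2 bound of -1.71 but neither HMGB1 coding probe.

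Of 84 genes in 7 lists of related proteins, 82 were on the arrays and 67 had a measured probe. At the brightest measured probe of a gene, 0 of the 67 were at -1 or less and 0 at 1 or more, where 0.769% and 0.842% of all gene names were. In both directions together that was 5 of 67 (7.46%) with normexp, 5 of 82 (6.10%) without the filter on dim probes and 4 of 67 (5.97%) with ratio limits of 1.5 and 0.55, where 4.21%, 4.55% and 4.32% of all gene names passed. The HMG members had a median log2 ratio of -0.30 over 8 measured genes by the same rule, beside -0.04 for the lists together and -0.03 for all gene names. The HMG value depended on the setting: it was -0.07 with quantile normalization or after the running median, -0.11 without the corner, and -0.85 with normexp (-0.62 relative to the median of all gene names there). Counting any probe, 0 list genes were lower and 1 was higher, where 1.12% and 1.55% of gene names had such a probe. That gene was TOX, an HMG-box factor of lymphocyte development, named after its values were seen. Its probe A_23_P123413 read 19.1, not well above background, and 116, which is 5.94-fold higher. That bound is the plain ratio of the signals, with a software error of 0.44 in log2, and sets no minimum. The spot sits at row 463 and column 85 in the scattered corner. The 36 measured spots around it had an SD of 0.96, and 11 of them were at 1 or more. A_24_P226755, outside the corner, had a log2 ratio of -0.40. TOX did not pass the limit with normexp, with the value table or without the corner.

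Among the other HMG-related proteins of chromatin, 14 of 18 genes were measured, with a median of 0.03. TOX2 had signals of 1328 and 1459 (0.10), and BBX 377 and 391 (0.02). Linker histones H1, which compete with HMG proteins for nucleosomes, had a median of -0.08 over 6 of 10 genes. H1FX had signals of 171 and 124, a log2 ratio of -0.50, and the testis form H1FNT 361 and 400 (0.11). The nucleosome chaperones had a median of -0.16 over 9 of 12 genes. NPM1 (nucleophosmin) had signals of 37568 and 30724 (-0.33, or -0.97 with normexp and -0.77 relative to the median there). Its signal lies over 100 times the array median, where all probes had a median of -0.30. The histone H3-H4 chaperone ASF1B had signals of 766 and 606 (-0.37).

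The SET complex, a DNA repair and chaperone complex that includes HMGB2, had a median of -0.87 over 3 of 5 genes. NME1, a nucleoside diphosphate kinase, had signals of 30231 and 16953, a log2 ratio of -0.87. Both signals lie over 100 times the array median, where all probes had a median of -0.30. APEX1, the main abasic-site endonuclease, had signals of 841 and 457 at its brightest measured probe, for a log2 ratio of -0.92. Neither reached the limit in the main setting, but both did with normexp, NME1 at -1.46 (-1.26 relative to the median there) and APEX1 at -1.31 (-1.11), and with 3 measured genes the median is that of 1 gene.

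Markers of the labelled cell type were partly present. Of 9 retinoblastoma and photoreceptor markers, 8 were on the arrays by name and 5 had a probe well above background, namely CRX, OTX2, ARR3, MYCN and NR2E3, while NRL, PDE6H and NEUROD1 had none. The 6 measured probes had a median log2 ratio of -0.29 and ranged from -0.47 to 0.42. NR2E3 was at 0.42, and the probes of MYCN differed in sign, at -0.47 and 0.30. Markers of Müller glia had a median of 0.03, retinal pigment epithelium 0.14, leukocytes 0.13 and fibroblasts 0.02, over 2 to 4 measured probes each. All genes of these lists but RPE65 had a probe well above background, and MITF A_23_P73345, in the scattered corner, had the highest ratio of any marker probe, 0.92 (43.3 untreated, 83.7 after siRNA). Whether cell composition moved with the HMG ratios was not tested.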

How the data were processed

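Spot intensity values were deposited for each array as the authors extracted them with Agilent Feature Extraction (version 9.5.3.1 per the file headers), background-subtracted and detrended within the array. Controls and outliers were excluded, signals were scaled to the 50th percentile of the array, floored at 0.01 and logged to base 2, and repeated spots were averaged. At least 50% of the spots had to be well above background for a probe to count so. The ratio is siRNA over untreated, and the limit was -1 or 1. No test between conditions was made. The authors' value table (medians 120 and 123) held the raw median brightness of the spots, unscaled and not centred, within 1 unit for all 40736 singly printed probes. Names came from the array files, and 15 of 20 RefSeq transcripts listed by the HMG probes were found in a reference table (GRCh38.p14).

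Members and lists were chosen with earlier results of these data known. Named were all members with every probe, of each list the genes with a measured probe past the limit and the 2 with the highest signal, and GAPDH, ACTB and TACSTD1. No list gene passed with a measured probe, and TOX, which passed by a bound, was named after its values were seen. The lists were other HMG-related proteins of chromatin, sequence-specific HMG-box factors, linker histones H1, the SET complex, HMGB1 receptors, the HMGA2 axis and nucleosome chaperones. Alternatives were other scalings, quantile normalization, normexp (limma 3.58.1, R 4.3.3; offset 50), the value table, subtraction of the median over measured spots within 5 rows and 5 columns, leaving out the scattered corner, no filter on dim probes, ratio limits of 1.5 and 0.55, and the mean or median over probes. Subtraction of a running median over 501 probes of like level was chosen after seeing the data. The code that makes the calls was tested on simulated data, which bears on the code alone. Python 3.11.15, numpy 2.4.6, pandas 2.3.3 and matplotlib 3.10.9 were used.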

Additional observations from a re-analysis of the deposited data

How the results depend on the processing

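No paired analysis was possible because each group has 1 array. Of the 13 alternatives, 12 were planned. The count of HMG probes past the limit was 2. It was 1 with the 75th percentile, without scaling, with the median over spots well above background, after subtraction of the local median or of the running median over like levels (chosen after seeing the data) and without the corner, 0 with the value table, 3 without the filter on dim probes, 3 with ratio limits of 1.5 and 0.55, and 2 with quantile normalization, where 5.04%, 5.74% and 2.11% of all probes with a value passed in either direction, against 2.21% in the main setting. In the settings with a count of 1, that share was 1.12% without the corner and 2.08% to 2.20% in the others except for the local median, where it was not computed. It was 0.579% with the value table. Normexp also gave 2, but other probes (HMGN2 A_32_P222383 and HMGN1 A_32_P22257), where 3.98% of all probes with a value passed. In all, 1060 probes were lower and 45 higher there (4.07% of calls higher), against 272 and 372 (57.8%) in the main setting. Normexp moved the median of all measured probes to -0.20, and relative to it the HMGB1 coding probes were at -0.62 and -0.35. The count of list genes was 1, where 2.69% of gene names passed. It was 6 with normexp and 7 without the filter on dim probes. It was also 7 with ratio limits of 1.5 and 0.55, and 0 with the value table and without the corner. In those settings 4.40%, 6.53%, 6.92%, 0.710% and 1.31% of gene names passed. The 6 genes with normexp were all lower and did not include TOX, the gene that was higher in the main setting. The median over HMG probes (-0.21) was -0.51 with normexp, -0.08 with quantile normalization, -0.11 after the running median and -0.13 after subtraction of the local median. The median over genes at the brightest probe (-0.30) was -0.066 with quantile normalization, -0.067 after the running median, -0.85 with normexp and -0.11 without the corner. The HMGB1 spread (0.92) was 0.52 with the value table and 1.50 with no filter on dim probes. The causes were not tested. Of 247 single values under alternatives, 55 moved by at least the technical SD and 15 turned sign, counting a probe again where it is also its gene's brightest, none of them past the limit in the main setting. The 3 probes without a ratio, and both probes of HMGA2, are limited by signal over background or by saturation.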

Other observations

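Sequence-specific HMG-box factors, transcription factors that share the HMG box but read a defined motif, had a median log2 ratio of -0.10 over 14 of 16 genes at their brightest measured probe, and 10 of the 14 were below 0, as were 55.2% of all gene names by the same rule. LEF1, the nuclear partner of beta-catenin, had signals of 38043 and 30082, a log2 ratio of -0.37. Its signal lies over 100 times the array median, where all probes had a median of -0.30. SOX4, a factor of neural and retinal progenitors, had signals of 1996 and 1124, a log2 ratio of -0.86. None reached the limit in the main setting. With normexp SOX4 was at -1.38 and LEF1 at -1.06, or -1.18 and -0.86 relative to the median of all probes there.

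Genes of HMGB1 receptors and partners had a median of 0.14 over 11 of 11 genes, with AGER, the receptor for advanced glycation end products, at 385 and 404 (0.03) and the chemokine CXCL12 at 360 and 240.0 (-0.62). Genes of the HMGA2 axis had a median of 0.01 over 10 of 12 genes. DICER1, the nuclease that makes mature microRNAs, had signals of 839 and 644 (-0.42), and PATZ1, listed as ZNF278, had 6153 and 3728 (-0.76) at its brightest probe, but -1.37 with normexp (-1.17 relative to the median there). HMGB4, the testis member outside the 9 genes, had signals of 124 and 132, a log2 ratio of 0.05.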
